A study of Danio rerio with 18 samples.

Results

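Most subunits of the mitochondrial respiratory chain and of the ATP synthase are encoded in the nucleus, and the mRNAs of 105 such zebrafish genes were followed on and off polysomes from the egg to the early gastrula. They are the genes of the deposited gene table whose symbol, case ignored, starts with NDUF followed by A, B, C, S or V, with SDHA to SDHD, with UQCR, with COX4 to COX8 or with ATP5, together with CYC1. That is 105 of the 27015 genes in the table, of which 22547 carry a symbol. By name, 42 belong to complex I, 5 to complex II, 9 to complex III, 18 to complex IV and 20 to the ATP synthase, and 11 are assembly factors of complexes I and II (7 NDUFAF and 4 SDHAF genes). Symbols are spelled as in the gene name table, which gives some of them in capitals.

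The embryos were wild-type fish of the AB strain, taken whole at 6 stages: egg, 1-cell, 16-cell, 128-cell, 3.5 hours post fertilization (hpf) and 5.3 hpf. Every stage was sequenced in 3 forms, all depleted of ribosomal RNA: mRNA bound to polysomes, mRNA left unbound, and RNA that was not fractionated. Each of these 18 combinations is 1 library, so no condition has replicates, and the number of embryos per sample is not given in the sources used here. Polysome profiling separates mRNAs that carry several ribosomes from those that do not, and the ratio of the bound to the unbound level is used here as a relative measure of loading.

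The respiratory chain passes electrons from NADH (complex I) and succinate (complex II) through complex III to oxygen at complex IV, and the proton gradient built on the way drives the ATP synthase. Apart from complex II, each of these complexes joins subunits made in the cytosol from nuclear genes with a few subunits encoded in mitochondrial DNA. The zebrafish egg carries a large maternal store of mitochondria and of mRNA, and its own genome becomes broadly active between the 128-cell stage and 3.5 hpf, so the mRNAs of the first 4 stages are maternal.

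The read totals, in units of 1000000 reads, were 50.75 to 66.05 in the bound, 30.67 to 71.65 in the unbound and 35.78 to 60.15 in the unfractionated libraries. Neighbouring stages up to 128-cell resembled each other closely (Spearman rho 0.944 to 0.978 over 18936 genes within a fraction), whereas the steps to 3.5 hpf and to 5.3 hpf gave rho of 0.814 to 0.855. The bound and unbound libraries were least alike at 3.5 hpf (rho 0.878, against 0.914 to 0.938 at the other stages). For the respiratory chain and ATP synthase mRNAs, the tests that use the 3.5 hpf libraries are also given without them. Marker genes followed the stage labels. Of 12 maternal markers 8 fell and none rose in the unfractionated libraries of 3.5 and 5.3 hpf, and of 19 zygotic markers 17 rose and none fell. Markers of other cell types moved with stage as well: from early to late 1 of 3 blood, 3 of 6 liver, 3 of 9 muscle and 4 of 10 follicle cell markers tested rose and none fell. The summed level of the 5 blood markers found was 6.47 to 7.33 normalized counts per 1000000 of the gene table in the late unfractionated libraries, against 0.59 to 4.32 in the early ones. For the 8 liver markers it was 8.30 to 22.2 late, against 1.99 to 5.29 early, and for the 10 muscle markers 19.6 to 26.8 late, against 7.25 to 8.58 early. The 11 genes found for the 10 follicle cell markers summed to 88.1 to 143 late, against 85.6 to 171 early. The globin genes hbaa1 and hbae1.1 had fewer than 10 normalized counts in every unfractionated library, as did the liver gene fabp10a. The follicle gene symbol FOXL2 is carried by more than 1 entry. An entry of that symbol, but not each of them, stayed below 10 in the early unfractionated libraries, and likewise in the late ones. The part of these markers in the results below was not tested.

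All values below are the authors' normalized counts, that is, reads per gene divided by 1 factor per library, unless TPM is named. They are not divided by transcript length, so they compare a gene between libraries and not 1 gene with another. In whole embryos fewer cells of a type and less RNA per cell cannot be told apart.

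Together the 105 mRNAs were a similar share of the polysome-bound RNA in the egg, at 1-cell and at 5.3 hpf, and a smaller one at the 3 stages between. In the bound libraries they made up 0.201, 0.207, 0.161, 0.160, 0.120 and 0.217% of all normalized counts from egg to 5.3 hpf. The unbound libraries held 0.366, 0.397, 0.365, 0.390, 0.246 and 0.220%, and the unfractionated libraries 0.343, 0.376, 0.349, 0.366, 0.232 and 0.226%. Up to 3.5 hpf the share was thus lower in the bound than in the unbound library of the same stage, and at 5.3 hpf the 2 shares were alike, while the normalized counts of that stage summed to 121960 bound, against 98319 unbound. The ATP synthase mRNAs had 779, 756, 550.0, 530.3, 441 and 677 counts per 1000000 of the gene table in the bound libraries, against 1933, 2084, 1953, 2069.8, 1234 and 999.7 in the unbound ones. Complex IV had 193, 203, 146, 139.9, 93.4 and 362 bound on the same scale, against 331, 346, 310.5, 339, 239 and 269.8 unbound, and complex III 195, 218, 161, 191, 156 and 391 bound, against 446, 468, 434, 479.8, 234 and 267 unbound. For complexes III and IV 5.3 hpf was the only stage at which the bound sum exceeded the unbound sum, per 1000000 and in normalized counts alike. The sums go by name and leave NDUFA4, whose mammalian protein sits in complex IV, in complex I. From egg to 128-cell its excess of bound normalized counts, given below, is larger than the deficit of the complex IV sum. In normalized counts the direction for complex IV at these stages thus depends on where NDUFA4 is counted. The sum for complex I was 692, 716, 608, 567, 317 and 583 bound, against 649, 764, 657, 708, 483 and 458 unbound, with the bound sum higher in the egg and at 5.3 hpf. In the egg this order rests on NDUFA4, without which the bound sum per 1000000 is the lower one. In normalized counts, the scale of the ratios that follow, the complex I sum was 51084, 50102, 46911, 38226, 18039 and 32775 bound, against 29604, 34514, 30623, 31127, 19831 and 20471 unbound, so on that scale it was higher bound at every stage but 3.5 hpf. The bound libraries have the larger gene table totals, and the direction therefore depends on the scale at 1-cell, 16-cell and 128-cell. Within the bound libraries complex I had a larger sum than the ATP synthase at 16-cell and 128-cell, and the ATP synthase the larger one at the other 4 stages. Without NDUFA4 the complex I sum is the smaller one at 16-cell and 128-cell as well.

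**Figure D1:**
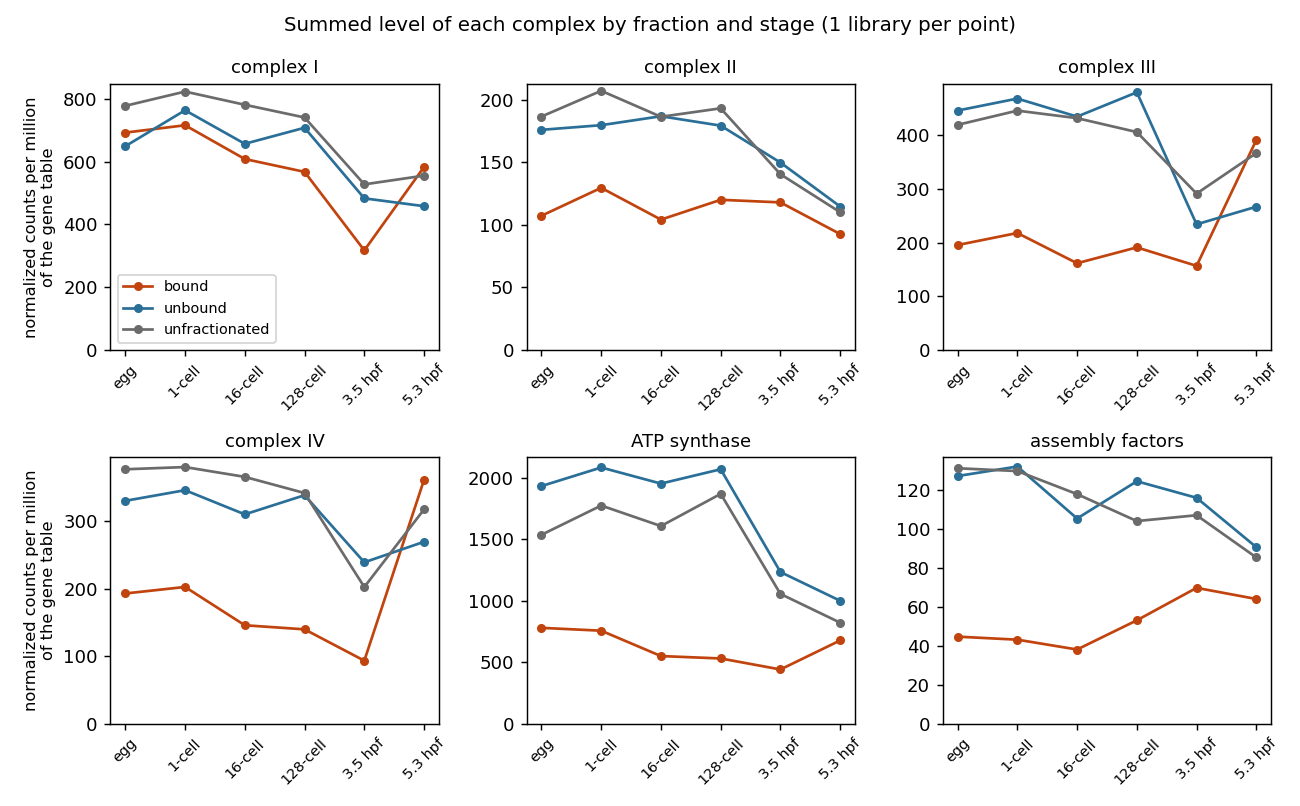
Summed normalized counts of each complex per 1000000 of the gene table (vertical axis, starting at 0) against stage, for the bound, unbound and unfractionated libraries, with 1 library per point. The bound sums of complexes III and IV at 5.3 hpf, 391 and 362, lie above the unbound sums of 267 and 269.8, while the ATP synthase sums stay higher in the unbound libraries throughout.

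Per length, 59 of the 105 genes could be joined to 1 transcript each, which allows levels to be compared between genes as TPM. Their mean TPM over the 6 unfractionated libraries ran from 0.763 to 358, with a median of 32.9. ATP5F1B, the catalytic beta subunit of the ATP synthase, was at the top with 358 TPM. It was followed by COX4I1, a large nuclear subunit of complex IV, with 291 TPM, and by UQCR10, a small subunit of complex III, with 219.8 TPM. The lowest were the complex IV isoforms COX4I2 (0.763 TPM), cox8b (1.19 TPM) and cox6b1 (1.26 TPM) and the complex I relatives NDUFA4L2 (2.01 TPM) and ndufa9b (2.28 TPM). The transcripts are short, with a median of 742 bases and a range from 385 (NDUFB1) to 2524 bases (SDHAF2).

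The bound and unbound fractions were compared over the 6 stages to see which of the mRNAs were favoured on polysomes, with stage as a block. Of the 105 mRNAs, 5 were higher and 9 were lower in the bound than in the unbound libraries at an adjusted p under 0.05 (limma, Benjamini-Hochberg over 24893 genes), and 91 did not pass. As each fraction and stage is 1 library, the error of this test is the spread of the ratio between stages, so the p-values measure that spread and not one between repeat samples. Over all genes tested 8.46% were higher and 7.10% were lower, so the number higher was below, and the number lower near, the background. The median log2 ratio was -0.27 over the 105 mRNAs and -0.01 over all genes. By complex the medians were -0.72 for the 20 ATP synthase mRNAs, -0.78 for the 11 assembly factors, -0.31 for complex III, -0.09 for complex I, -0.06 for complex II and 0.00 for complex IV. The number called depends on the scaling. With libraries scaled to equal summed counts 3 were higher and 43 lower, against 4.47 and 24.1% of all genes. With scaling to the 4 control entries of the transcript files it was 1 and 73, against 0.643 and 50.2%, and with centring on the median gene 12 and 5, against 13.1 and 3.81%. The median of all genes moved to -0.54, -1.34 and 0.24 under these scalings, and relative to it the median of the 105 mRNAs was -0.31, -0.40 and -0.25, against -0.25 with the deposited scaling.

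All 4 mRNAs with a complex I name that were higher in the bound fraction are counted as accessory, as are 35 of the 42. NDUFA4, named as a complex I gene although its mammalian protein sits in complex IV, had 8448, 7759, 9051, 7238, 2036 and 4568 normalized counts in the bound libraries from egg to 5.3 hpf, against 1247, 1224, 995, 933, 1489 and 2839.7 in the unbound ones. It was higher in the bound library at all 6 stages, with a gap that narrowed after the 128-cell stage, and the log2 ratio was 2.12, SE 0.39, adjusted p = 0.00473. NDUFB6, a subunit of the membrane arm, had 1270.4, 1000.3, 1000.0, 672, 114 and 353 bound, against 11.7, 30.3, 116, 112, 172 and 114 unbound. Its bound level exceeded the unbound one at every stage except 3.5 hpf, where the order was turned round (3.06, SE 0.75, adjusted p = 0.0187). The membrane arm subunit ndufc2 had 2889.9, 2154, 2841, 3736, 529 and 1687 bound, against 427, 929.6, 493, 450.1, 438 and 483 unbound, which put the bound library higher at all 6 stages (1.94, SE 0.35, adjusted p = 0.00475). NDUFAB1, the mitochondrial acyl carrier protein, had 1394, 1508, 1474, 1723, 975 and 2103 bound, against 908, 616, 885, 826, 657 and 706 unbound. These ranges did not overlap, and the log2 ratio was 0.97, SE 0.23, adjusted p = 0.0171. Under scaling to the control entries its ratio turned to -0.51 and was no longer called.

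Its paralogue ndufab1b went the other way, with 388, 413, 357, 290.5, 297 and 736 bound, against 1390.4, 913, 1040.0, 1263, 486 and 606 unbound. It was lower in the bound library at 5 of 6 stages, 5.3 hpf being the exception (-1.18, SE 0.33, adjusted p = 0.0317). The core subunit NDUFS8, which carries iron-sulfur clusters towards the quinone site, had 1349, 1191, 1106, 1112, 423 and 603 bound, against 2294, 1919, 2081, 2153, 2496 and 1449 unbound, with no overlap between the fractions (-1.19, SE 0.28, adjusted p = 0.0151). The other core subunits were not called. Among them NDUFS1, which holds several iron-sulfur clusters of the electron path, had a log2 ratio of 0.67, SE 0.23, adjusted p = 0.0693, NDUFV1, which binds NADH and the flavin, 0.63, SE 0.24, adjusted p = 0.0978, and NDUFV2 -0.79, SE 0.40, adjusted p = 0.222.

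The ATP synthase mRNAs that passed were all lower in the bound fraction, 4 of 20. ATP5F1B, the catalytic beta subunit, had 8513, 7769.9, 7130.5, 6801, 10264 and 6577 bound, against 25388, 26529.9, 27299.9, 26199.5, 17278 and 14334 unbound. The fractions did not overlap (-1.52, SE 0.27, adjusted p = 0.0042). ATP5F1A, the alpha subunit that alternates with beta in the F1 head, had 11386, 10957, 10803, 8964, 7084 and 13200.0 bound, against 23136, 20879, 24487, 23321, 18326 and 17913 unbound, again without overlap (-1.05, SE 0.26, adjusted p = 0.0191). ATP5PB, the b subunit of the peripheral stalk, had 3615, 3892, 2211, 1293, 749 and 2506 bound, against 12661, 13596, 12715, 14489, 3281 and 1478 unbound. It was lower in the bound library at the first 5 stages and higher at 5.3 hpf (-1.83, SE 0.44, adjusted p = 0.0167). For atp5mc3b, which codes for subunit c of the membrane ring, the values were 3029.5, 2691, 1245, 1076, 238 and 1169.6 bound, against 4716, 4325, 4221, 3977, 2552 and 1833 unbound, lower at all 6 stages (-1.51, SE 0.36, adjusted p = 0.0169). The other c ring genes had log2 ratios of 0.51, SE 0.22, adjusted p = 0.148 for atp5mc1 and -0.27, SE 0.22, adjusted p = 0.471 for ATP5MC3, and were not called. Since these genes encode near-identical mature proteins, reads shared between them could have been split by the authors' quantification.

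In complex III, UQCR10 was higher and UQCRH, the hinge protein near cytochrome c1, lower in the bound fraction. UQCR10 had 3963, 2848, 2848, 2502, 1165 and 1973 bound, against 1759.6, 1743, 1543, 1691, 1041 and 917 unbound, and was higher at all 6 stages (0.77, SE 0.22, adjusted p = 0.0407). Under scaling to the control entries its log2 ratio became -0.71 and was not called. UQCRH had 1419.7, 1332, 973, 1069.8, 606 and 2985 bound, against 2476, 2768, 2708, 2676, 1072 and 2659.8 unbound, and was lower at 5 stages and higher at 5.3 hpf (-0.89, SE 0.26, adjusted p = 0.0381). No mRNA with a complex II or complex IV name was called. The smallest p in complex II belonged to SDHB, the iron-sulfur subunit (0.68, SE 0.22, adjusted p = 0.0643), and in complex IV to cox6a1 (0.71, SE 0.24, adjusted p = 0.067). The flavoprotein subunit SDHA had a log2 ratio of -0.06, and the membrane anchor SDHC -1.00. Of the assembly factors, all 11 had a ratio below 0, as had 12573 of the 24893 genes tested, and NDUFAF6 and NDUFAF4 passed. NDUFAF6 had 251, 225, 129, 146, 128 and 161 bound, against 612, 774, 503, 581, 731 and 207 unbound, lower at all 6 stages (-1.64, SE 0.33, adjusted p = 0.00725), and NDUFAF4 had 198, 95, 168, 117, 98.8 and 167 bound, against 376, 584, 394, 328, 445 and 139 unbound, lower at 5 of 6 stages (-1.36, SE 0.39, adjusted p = 0.0378).

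Leaving out 1 stage at a time moved these counts. Without 5.3 hpf 4 were higher and 25 lower (10.7 and 8.23% of all genes), and without 3.5 hpf 9 and 8 (9.32 and 6.92%). Without egg the numbers were 4 and 6, against 5.82 and 4.21% of all genes, and without 1-cell 2 and 5, against 5.92 and 4.38%. They were 2 and 3 both without 16-cell, against 4.56 and 2.82%, and without 128-cell, against 4.97 and 3.08%, so the calls over all genes became fewer as well. NDUFA4, ndufc2, ATP5F1B, NDUFAF6 and NDUFS8 passed whichever stage was left out. Of these, NDUFA4, ndufc2 and NDUFS8 each lost the call in 1 of the other settings run. The lowest log2 ratios over all settings were 0.636 for NDUFA4 and 0.457 for ndufc2.

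The mean over stages hides an order by stage. For the 94 mRNAs that reach 100 normalized counts in 2 or more fractionated libraries, the median log2 ratio was -0.30, -0.43, -0.59, -0.89, -0.56 and 0.61 from egg to 5.3 hpf, against 0.00, 0.01, 0.08, 0.03, -0.16 and -0.30 for all 18936 genes that pass the same filter. The median of the 94 was thus lower at each step up to the 128-cell stage, and at 5.3 hpf it was above that of all genes. In the egg 41 of the 94 had a ratio above 0, at the 128-cell stage 25 and at 5.3 hpf 76, against 50.0, 50.6 and 37.7% of all genes. More than 2-fold higher bound than unbound at 5.3 hpf were 27 of the 94, against 9.26% of all genes. The 11 that did not pass the filter are NDUFA12, NDUFB1, ndufa4l2b, COX4I2, cox4i1l, cox6b1, cox7a1, cox8b and the scarcer copy of each pair sharing the symbols SDHD, COX5B and COX6A1.

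**Figure D2:**
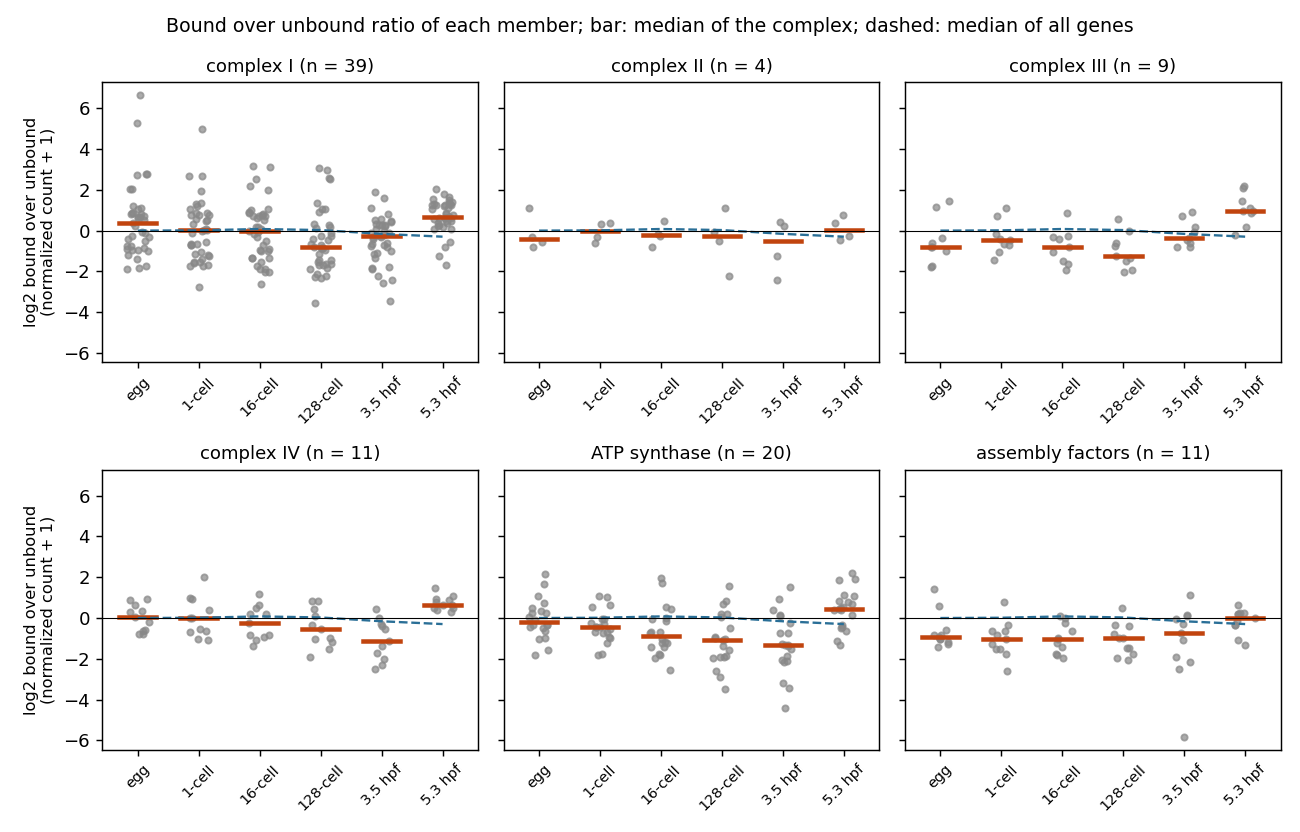
Log2 bound over unbound ratio of each mRNA (points, normalized count + 1) by stage in the 5 complexes and the assembly factors, with the median of each complex (bar) and of all 18936 genes (dashed line). The complex IV median is -1.13 at 3.5 hpf and 0.66 at 5.3 hpf, and that of the ATP synthase -1.30 and 0.47, while the median of all genes stays between -0.30 and 0.08.

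The slope of the ratio from egg to 128-cell was tested to see whether loading changed during cleavage. Of 100 mRNAs tested none had a rising and 14 a falling ratio (limma, adjusted p under 0.05 over 22250 genes), against 4.05 and 4.70% of all genes. At an unadjusted p under 0.05 there were 27 in either direction, against 20.8% of all genes. With edgeR on the reads of the gene table none of 102 rose and 13 fell, against 3.86 and 4.72% of all genes. The median slope was -0.18 per stage step on the log2 scale, and -0.02 over all genes. Of the 14, 7 belong to complex I, 6 to the ATP synthase and 1 to complex III.

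The peripheral stalk of the ATP synthase, which holds the F1 head still against the rotor, contributed 3 of its 4 subunits. ATP5PD, subunit d, had 1298, 1320.0, 379 and 237 normalized counts in the bound libraries of the 4 early stages, against 1085, 1616, 1013 and 1741 in the unbound ones. The bound level was lowest and the unbound level highest at 128-cell, and the slope was -1.05, SE 0.16, adjusted p = 0.00356. ATP5PO, the stalk's link to the head, had 1804, 1330.2, 588 and 331 bound, against 1284, 1796, 1563 and 1264 unbound, with a slope of -0.82, SE 0.15, adjusted p = 0.00656. In the egg it was higher in the bound library, and at the other 3 stages in the unbound one. ATP5PB had a slope of -0.57, SE 0.13, adjusted p = 0.0214. The gamma and delta subunits of the central stalk followed, ATP5F1C with -0.64 and ATP5F1D with -0.81 per step, and the c ring gene atp5mc3b with -0.48.

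In complex I the steepest slope was that of NDUFB6, whose bound and unbound values are given above (-1.41, SE 0.28, adjusted p = 0.0106). Here the unbound level was 11.7 counts in the egg and 112 at 128-cell, so the early ratios rest on few unbound counts. NDUFS6, an accessory subunit next to the iron-sulfur clusters, had 347, 376, 83.6 and 64.5 bound, against 197, 365, 216 and 313 unbound (-1.06, SE 0.27, adjusted p = 0.0336). The bound level dropped between the 1-cell and the 16-cell library. The core subunits NDUFS3 and NDUFS7 had slopes of -0.77 and -0.66, and the accessory subunits ndufa5, NDUFB5 and NDUFA8 of -0.92, -0.72 and -0.66. In complex III, UQCRQ had 725, 535, 274 and 167 bound, against 269, 249.9, 329 and 466 unbound, and a slope of -1.01, SE 0.23, adjusted p = 0.0199. The nearest in complex IV was cox5aa (-0.56, SE 0.16, adjusted p = 0.0569), in complex II SDHC (-0.54, SE 0.19, adjusted p = 0.11) and among the assembly factors SDHAF4 (-1.13, SE 0.33, adjusted p = 0.0623), none of which passed. With 2 residual degrees of freedom the slope rests on few libraries. Without the 128-cell libraries, with scaling to the control entries and with limma without its mean-variance trend none of the mRNAs was called, and 0.740, 0.37 and 0% of all genes had a falling ratio. Without egg 5 of 100 had a falling ratio, against 3.92% of all genes, a share near the background. Without 1-cell 17 of 99 did, against 7.52%, and without 16-cell 12 of 100, against 3.86%.

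The ratio at the late stages (3.5 and 5.3 hpf) was set against the 4 early stages to see whether loading differed after the genome became active. Of 105 mRNAs 7 had a higher and 4 a lower ratio late than early (limma, adjusted p under 0.05), against 2.36 and 5.39% of the 24893 genes tested. The median change was 0.18 for the 105 mRNAs and -0.51 for all genes. In complex III 3 of 9 were higher and none lower, with a median change of 0.84. The test uses the same fractionated libraries as the comparison of the fractions over all stages. The other 4 that were higher late are the complex I accessory subunits ndufa5, NDUFS5 and NDUFA10 and the ATP synthase inhibitor atp5if1a.

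UQCRB, a complex III subunit near the quinone site, had 341 and 1792 normalized counts in the bound libraries of 3.5 and 5.3 hpf, and 351, 455, 281 and 252 in those of the early stages. In the unbound libraries it had 358 and 392 late and 1207, 744, 869 and 1018 early. The early stages were all higher unbound, 3.5 hpf was nearly even, and 5.3 hpf was higher bound, a change of 2.59, SE 0.65, adjusted p = 0.0417. UQCRC1 and UQCRC2 are the large core proteins of complex III. For UQCRC1 the bound libraries had 2244 and 3457 late and 1929, 2394, 2377 and 3365 early, and the unbound ones 1191 and 1260.4 late and 3882, 3769, 4081 and 3401 early (1.80, SE 0.39, adjusted p = 0.0238). UQCRC2 had 1360.4 and 2780.4 late and 1235, 1576, 1073 and 1115 early when bound, and 2363 and 1439 late and 4106, 4339, 4055 and 4188 early when unbound (1.83, SE 0.48, adjusted p = 0.047). In both the unbound level was lower at each late stage than at any early stage.

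The largest change among the abundant mRNAs was that of ndufa5, a subunit of the arm that reduces quinone. It had 177 and 788 bound late and 208, 185, 101 and 49.9 early, and 58.6 and 193 unbound late and 380.2, 540.0, 624 and 602 early (3.95, SE 0.77, adjusted p = 0.0169). Each late ratio was above 0 and each early ratio below 0. NDUFS5 had 209 and 473 bound late and 327, 351, 270.2 and 197 early, and 198 and 197 unbound late and 1216, 1035, 1004 and 611 early (2.41, SE 0.49, adjusted p = 0.0191). Here the late and early bound levels overlapped, and the unbound level was lower at both late stages. NDUFA10 had 356 and 872 bound late and 233, 252, 218 and 216 early, and 294 and 421 unbound late and 789, 754, 558 and 474 early (2.12, SE 0.47, adjusted p = 0.0266). For atp5if1a, which blocks the ATP synthase from running in reverse, the values were 1576 and 2082 bound late and 2563, 4344, 3714 and 2102 early, and 837 and 549 unbound late and 3430.3, 5796, 3663 and 2930.0 early (1.74, SE 0.39, adjusted p = 0.0264). Its paralogue atp5if1b changed by 1.58, SE 0.47, adjusted p = 0.0713, which did not pass.

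The 4 with a lower ratio late had a higher bound than unbound level at every early stage. NDUFA4, whose values are given above, had ratios of 2.76 in the egg and 2.95 at 128-cell on the log2 scale, against 0.45 at 3.5 hpf and 0.69 at 5.3 hpf (-2.32, SE 0.33, adjusted p = 0.00684). NDUFA9, an accessory subunit at the junction of the 2 arms of complex I, had 657 and 1475 bound late and 3826, 4007, 3908 and 3171 early, and 1388 and 859 unbound late and 935, 1038, 863 and 1253 early (-2.02, SE 0.52, adjusted p = 0.0446). The small membrane subunit atp5mea had 852 and 986 bound late and 4974, 3719, 3180.4 and 3495 early, and 2109 and 883 unbound late and 1103, 1837, 825 and 1182 early (-2.25, SE 0.49, adjusted p = 0.0258). In both the early bound libraries stood above every other library. The fourth, the complex IV isoform cox7a1, rests on few counts, 0 and 26.8 bound late and 44.2, 69.4, 64.6 and 35.6 early, against 39.6 and 52.7 unbound late and 1.16, 7.21, 1.98 and 9.77 early, and its fitted change of -6.57, SE 1.46, adjusted p = 0.0268 is no measure of size because of the 0. In mammals COX7A1 is known as the isoform of muscle.

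**Figure D3:**
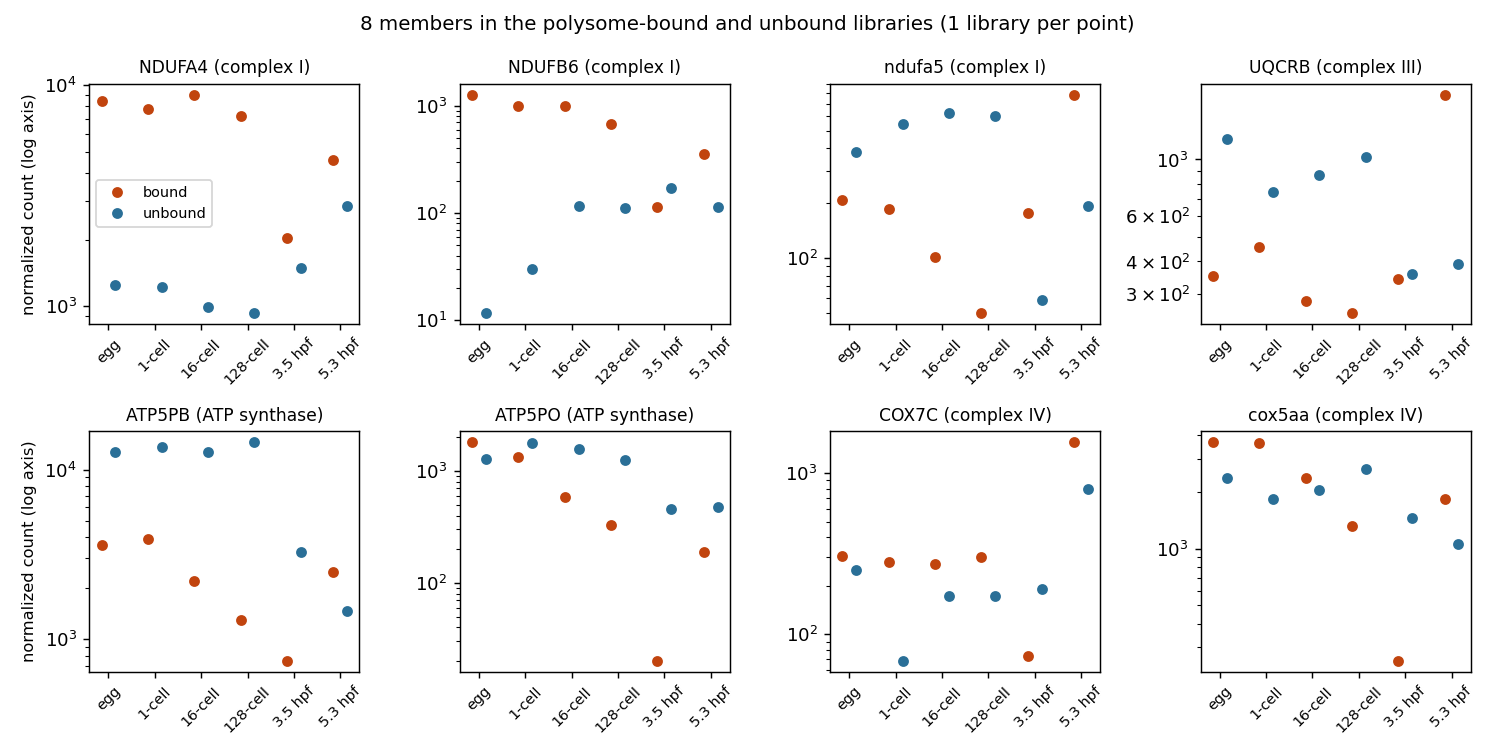
Normalized counts (log axis) of 8 mRNAs in the bound and unbound libraries against stage, with 1 library per point. NDUFA4 and NDUFB6 lie far higher bound than unbound in the egg, whereas UQCRB and ndufa5 are higher unbound early and higher bound at 5.3 hpf; ATP5PB, ATP5PO, COX7C and cox5aa have their lowest bound value at 3.5 hpf.

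With limma without its mean-variance trend none of the 105 mRNAs was called, and 0% of all genes were higher and 0.00402% lower. Each of the calls above was also lost in at least 1 of the fits that leave out a stage. Without 3.5 hpf none of the 105 mRNAs and 0% of all genes were called, although the median change was then 1.22 above that of all genes, against 0.69 with all libraries. Without 5.3 hpf 0 were higher and 5 lower, against 0.940 and 2.63% of all genes, and the median was 0.06 above that of all genes. Without egg 1 was higher and 1 lower, against 0.919 and 2.36% of all genes, and without 1-cell 3 and 2, against 1.26 and 3.0%. Without 16-cell 0 were higher and 1 lower, against 0.685 and 1.81%, and without 128-cell 5 and 5, against 2.64 and 5.89%.

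The step between the 2 late stages was the largest in these mRNAs, and with 1 library per fraction and stage it is a description without a test. From 3.5 to 5.3 hpf the ratio changed by a median of 1.27 on the log2 scale over the 94 mRNAs, against -0.13 over all genes. Of the 94, 55 had a ratio more than 2-fold higher at 5.3 hpf than at 3.5 hpf, against 17.4% of all genes, and 3 more than 2-fold lower, against 18.6%. By complex, more than 2-fold higher were 24 of 39 in complex I, 1 of 4 in complex II, 5 of 9 in complex III, 7 of 11 in complex IV, 14 of 20 in the ATP synthase and 4 of 11 assembly factors. All 11 complex IV mRNAs had a higher ratio at 5.3 than at 3.5 hpf, against 45.1% of all genes. Set against the mean of the 4 early stages in place of 3.5 hpf, the ratio at 5.3 hpf was still higher by a median of 0.72, against -0.43 over all genes, and 44 of the 94 were more than 2-fold higher, against 13.3% of all genes.

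Low bound values at 3.5 hpf took part in this step. ATP5PO had 20.2 normalized counts bound at 3.5 hpf, against 456 unbound, and 189 bound at 5.3 hpf, against 477 unbound. For cox5aa, an isoform of the matrix-facing complex IV subunit 5A, the values were 254 bound, against 1448 unbound, at 3.5 hpf, and 1836 bound, against 1066 unbound, at 5.3 hpf. In the first the ratio stayed below 0 at both stages, and in the second it changed sign. COX7C, a small membrane subunit of complex IV, had 73.3 bound, against 189.9 unbound, at 3.5 hpf and 1553 bound, against 801 unbound, at 5.3 hpf. The coupling factor ATP5PF of the peripheral stalk had 71.3 bound, against 310.3 unbound, at 3.5 hpf and 1299.6 bound, against 284 unbound, at 5.3 hpf. Both were thus higher in the bound than in the unbound library of 5.3 hpf. In the bound library of 3.5 hpf NDUFAF8, NDUFB1 and cox7a1 are listed at 0. The main exceptions were NDUFA3, ndufa4b and atp5if1b, whose log2 ratios changed by -1.74, -1.53 and -1.02.

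At 5.3 hpf the ratio itself, on the log2 scale, differed widely among the mRNAs of most complexes. Over the 94 that pass the filter it ran from -1.66 for ndufa4b, counted with complex I by name only, to 2.19 for UQCRB. In complex III UQCRB and UQCRQ (2.08), which flank the cytochrome b core, were highest, the core proteins UQCRC1 (1.45) and UQCRC2 (0.95) and the redox subunits UQCRFS1 (0.95) and CYC1 (0.88) lay between, and uqcrc2a (-0.21) was the only member below 0. In complex I the accessory subunits ndufa5 (2.02), ndufc2 (1.80) and NDUFB6 (1.63) were highest. Below 0 were, among others, ndufa9b (-0.58) and the NDUFA4 paralogues ndufa4b and NDUFA4L2 (-0.79), which carry complex I names. The core subunits ran from 1.23 for NDUFV2 to -1.26 for NDUFS8, the only core subunit below 0. In the ATP synthase the peripheral stalk alone ran from -1.33 for ATP5PO to 2.19 for ATP5PF, and the inhibitory factor atp5if1a was at 1.92. The head subunits ATP5F1A and ATP5F1B were at -0.44 and -1.12. The libraries of this stage are part of the comparison over all stages, in which these alpha and beta subunits were called lower in the bound fraction. Among the complex IV mRNAs that pass the filter the ratio ran from 0.29 for COX5A to 1.48 for the abundant COX5B gene, which codes for a zinc-binding subunit. In complex II it was -0.47 for SDHA, 0.36 for SDHC and 0.77 for SDHB.

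Transcript length varied along with the step. Over the 53 mRNAs of the 94 that have a joined transcript, length and the change from 3.5 to 5.3 hpf had a Spearman rho of -0.54 across genes, against -0.15 over 8075 genes, as a description of genes that share the same libraries. Of the 37 that are at most 1000 bases long, 26 (70.3%) had a ratio more than 2-fold higher at 5.3 hpf, with a median change of 1.53. Of 1462 other genes at most 1000 bases long, 30.4% did, with a median change of 0.17. With the mean of the 4 early stages in place of 3.5 hpf, rho was only -0.0835 over the 53 and -0.165 over the 8075. The rho of the change thus depends on the stages that 5.3 hpf is set against. At 5.3 hpf itself the ratio was lower in longer transcripts (rho -0.55 over the 53 and -0.19 over the 8075), and at 3.5 hpf rho was 0.17 and 0.00. Over the 53 it was already -0.385 in the egg and -0.381 at 1-cell, and -0.194 at 16-cell and -0.138 at 128-cell. The part of length in the differences between these mRNAs was not tested.

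To see which mRNAs of the maternal store were lost or renewed, unfractionated levels at 3.5 and 5.3 hpf were set against those of the 4 early stages. Of 103 mRNAs tested, 3 rose and 30 fell (limma, adjusted p under 0.05), against 22.5 and 13.0% of the 23949 genes tested. As each stage is 1 library, the error of this test is the spread between stages within the early and late groups. It is not a spread between repeat samples. The median log2 change was -0.66, against 0.23 over all genes. The fallen mRNAs were 10 of 20 in the ATP synthase, 14 of 42 in complex I, including 5 of its 7 core subunits, 4 of 17 in complex IV, 1 of 4 in complex II and 1 of 11 assembly factors. In complex III no mRNA was called, with 2 of 9 at an unadjusted p under 0.05, against 47.8% of all genes. TMM scaling gave 3 up and 41 down, against 20.9 and 14.7% of all genes, and centring on the median gene 2 and 55, against 17.0 and 27.5%.

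Among the ATP synthase mRNAs 3 of 4 of the peripheral stalk, 3 of 5 of the head and central stalk and 2 of 2 inhibitory factor mRNAs fell. In the c ring it was 1 of 3, and among the small membrane subunits 1 of 6. ATP5PD had 376 and 275 normalized counts at 3.5 and 5.3 hpf, against 1579, 1769.9, 1739 and 1655 at the early stages (-2.39, SE 0.26, adjusted p = 0.00095). ATP5MG, subunit g of the membrane part, had 204 and 245, against 1200.2, 976, 967 and 1066 (-2.23, SE 0.27, adjusted p = 0.00149), and ATP5PO had 419 and 397, against 1555, 1784, 1533 and 1938 (-2.05, SE 0.25, adjusted p = 0.00139). In these 3 both late libraries lay well below all early ones, at about the same level as each other. ATP5PB fell to 2522 and 2022, against 7228, 8305, 7735 and 10168 early (-1.88, SE 0.22, adjusted p = 0.00138), and atp5if1a to 812 and 1184, against 2859, 3703, 3117 and 3916 (-1.78, SE 0.26, adjusted p = 0.00284). The other 5 called were ATP5F1C (-1.62), ATP5F1D (-1.46), atp5f1e (-1.09), atp5if1b (-1.34) and atp5mc1 (-1.23), given as log2 changes. The 2 most abundant, ATP5F1B with 15749 and 9817 late, against 18637, 19954, 20766 and 18919 early, and ATP5F1A with 12979 and 13623, against 16278, 19393, 18093 and 21253, did not pass (-0.65 and -0.49).

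In complex I the accessory subunits NDUFS4 and ndufb3 had the largest falls. NDUFS4 had 95.5 and 90.5 late, against 319.5, 448, 441 and 344 early (-2.03, SE 0.34, adjusted p = 0.00451), and ndufb3 had 210.0 and 233, against 798, 958, 867 and 753 (-1.92, SE 0.28, adjusted p = 0.00263). Both late libraries were below all early ones in each. Among the core subunits that fell, NDUFS3 changed by -1.09, NDUFS7 by -0.90 and NDUFS8 by -0.85 on the log2 scale, while NDUFV1 had 2367 and 2264 late, against 2055, 2514, 2645 and 2424 early, and did not pass (-0.05, SE 0.22, adjusted p = 0.869). Of the 3 that rose, 2 are paralogues of NDUFA4. NDUFA4L2, a hypoxia-responsive relative in mammals, had 126 and 201 late, against 7.47, 5.1, 5.53 and 20.8 early (4.11, SE 0.67, adjusted p = 0.00423). The scarce ndufa4l2b had 26.8 and 80.6, against 9.13, 5.1, 3.16 and 2.19 (3.15, SE 0.73, adjusted p = 0.0155), and the assembly factor NDUFAF1 had 503 and 946, against 232, 321, 203 and 260.3 (1.46, SE 0.38, adjusted p = 0.0229). In all 3 the 5.3 hpf library was highest. NDUFA4 itself had 2458, 2081, 1865, 1538, 1928 and 3765 from egg to 5.3 hpf and ndufa4b 227, 186, 246, 214, 248 and 179, neither of which passed (0.46 and -0.04).

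Many complex IV mRNAs had a low unfractionated level at 3.5 hpf and a higher one at 5.3 hpf, and the complex III mRNAs had a smaller dip. Of those that reach 100 normalized counts in 2 unfractionated libraries, 7 of 11 complex IV mRNAs were more than 2-fold lower at 3.5 hpf than at 128-cell, against 14.7% of all genes, and 7 of 11 more than 2-fold higher at 5.3 than at 3.5 hpf, against 13.7%. COX4I1 had 5166, 4982, 5541, 4479, 1936 and 4151 from egg to 5.3 hpf, COX5B 1301, 1378, 1320.4, 1793, 620.5 and 1258 and COX7C 297, 362, 218, 214, 218 and 1149.8. The first 2 dipped at 3.5 hpf, and COX7C was highest at 5.3 hpf. With 1 library per stage, the steps to and from 3.5 hpf are a description without a test. Both steps use the same 3.5 hpf library. The 4 called lower late were COX7A2 with 165 and 158 late, against 514, 586, 575 and 527 early (-1.76, SE 0.29, adjusted p = 0.00424), cox6c (-1.65), COX5A (-1.15) and cox5aa (-1.00). In complex III, CYC1, the cytochrome that hands electrons to cytochrome c, had 3748, 3888, 4299, 4916, 3032 and 3701, the Rieske protein UQCRFS1 1758, 2847, 1805, 1813, 992 and 2213, and UQCRC2 3287, 3777, 3687, 3320.4, 2291 and 2467. All 9 were lower at 3.5 hpf than at 128-cell, as were 8969 of 17331 genes, and higher again at 5.3 hpf, as were 48.9% of all genes. Only 1 of the 9 was more than 2-fold lower at 3.5 hpf, against 14.7% of all genes. At 5.3 hpf 4 of the 9 were more than 2-fold higher than at 3.5 hpf, against 13.7%. In complex II, SDHC fell to 639 and 532, against 2059, 1897, 2091 and 1562 early (-1.69, SE 0.25, adjusted p = 0.00295), while SDHA had 3516 and 2852, against 4358, 4736, 4225 and 4461 (-0.49), and SDHB 1019 and 1459, against 1321, 1645, 1487 and 1731 (-0.33). Over the 95 mRNAs that pass the filter, the median log2 level against the mean of the early stages was -0.87 at 3.5 hpf and -0.51 at 5.3 hpf, against -0.06 and -0.07 over all genes. For the ATP synthase it was -1.15 and -1.11, with 11 of 20 still more than 2-fold lower at 5.3 hpf, against 28.4% of all genes.

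**Figure D4:**
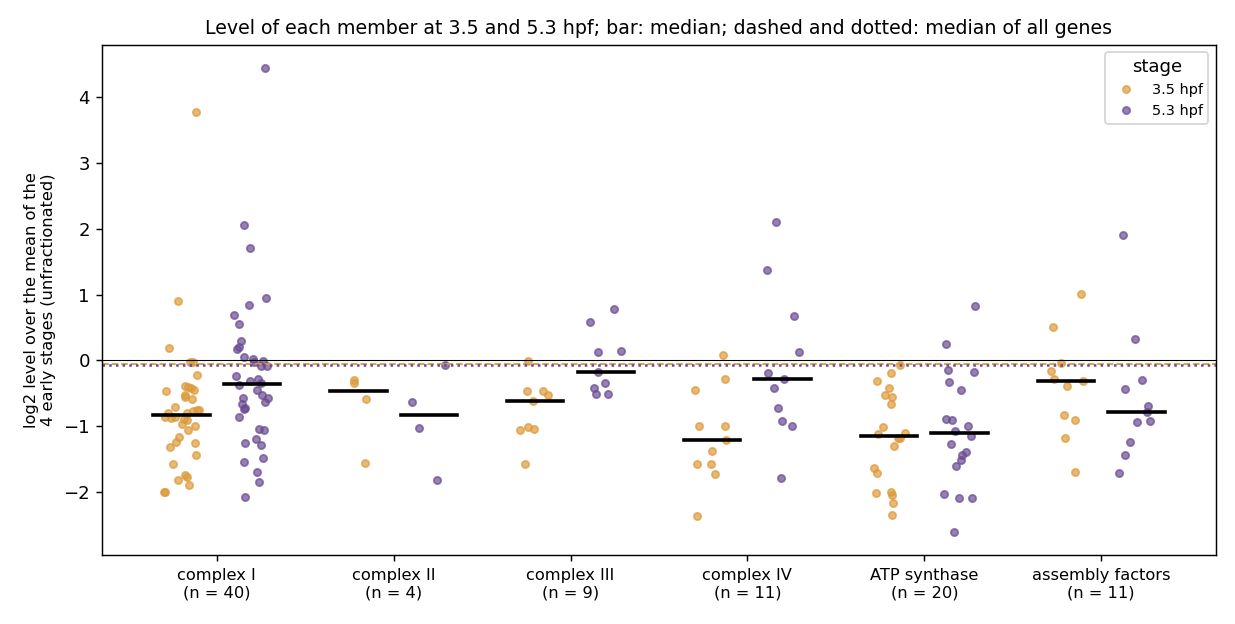
Log2 level of each mRNA at 3.5 and 5.3 hpf over the mean of the 4 early stages in the unfractionated libraries, by complex, with medians (bars) and the medians of all genes (dashed and dotted lines). The complex IV median is -1.21 at 3.5 hpf and -0.28 at 5.3 hpf, whereas that of the ATP synthase stays at -1.15 and -1.11.

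Without the 5.3 hpf library none rose and 33 fell, against 7.03 and 7.63% of all genes, and without 3.5 hpf 5 rose and 30 fell of 100, against 20.1 and 22.7%. The share of all genes that fell was thus larger without 3.5 hpf than with every library, and nearer to that of the mRNAs. Leaving out the egg, 1-cell, 16-cell and 128-cell library gave 18, 19, 17 and 24 falls of 103, against 7.06, 7.90, 6.96 and 8.29% of all genes.

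Several families hold paralogues that differ in tissue use in mammals. Per length, as mean TPM over the unfractionated libraries, COX4I1 had 291 TPM and its paralogue COX4I2 0.763 TPM, cox8a 12.2 TPM and cox8b 1.19 TPM, whereas COX5A and cox5aa were both abundant, with 90.7 and 175 TPM. The other paralogues have no joined transcript on at least 1 side, and their normalized counts are given gene by gene. The gene cox6b2, which carries the name of a mammalian testis isoform, had 3077, 3021, 2496, 1961, 2741 and 4158 normalized counts from egg to 5.3 hpf in the unfractionated libraries, with the highest value at the last stage, and cox6b1 had at most 32.4. The muscle isoform gene cox7a1 had at most 101 counts, in the 128-cell library. For complex III core protein 2, UQCRC2 ranged from 2291 to 3777 counts with the lowest value at 3.5 hpf, and uqcrc2a from 481 to 1031 with the highest at 5.3 hpf. Reads shared between paralogues could have been split by the quantification, so these levels carry that uncertainty.

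Other genes of the same pathway were set beside these mRNAs. Over all genes tested 8.46% were higher and 7.10% lower on polysomes, and 22.5% rose and 13.0% fell late against early. A higher ratio late than early was called in 2.36% of all genes and a lower one in 5.39%. Of 48 other assembly and cofactor genes of the respiratory chain that were tested, 2 were higher and 15 lower on polysomes, with a median log2 ratio of -0.38. The lower ones included BCS1L, which inserts the Rieske protein, OXA1L, the inner membrane insertase, and the copper chaperone SCO1, and the higher ones were LRPPRC, a stabilizer of mitochondrial mRNA, and UQCC1. Late against early, 1 of the 48 rose and 18 fell, with a median of -0.82. Their ratio was higher late than early for 1 (lyrm7) and lower for 3 (COX15, cox17 and uqcc3), with a median change of 0.26. Of 19 genes of the TCA cycle and pyruvate dehydrogenase, 1 was higher and 2, FH and MDH2, were lower in the bound fraction, and 5 fell and none rose late (FH, IDH3A, IDH3B, MDH2 and SUCLG1). Their ratio was higher late than early for DLST, PDHB and ogdha, and lower for none. Of 22 genes for transcription and regulation of mitochondrial genes 1 was higher and 3 were lower on polysomes, and 3 rose (GABPA, MTERF2 and YY1) and 4 fell late. In a list of 22 genes these counts lie near the shares of all genes. The ratio of TFAM, which packages mitochondrial DNA, was higher late than early, and that of GABPA lower. Without the 3.5 hpf libraries 0% of all genes were called for the late change of the ratio. The calls of that change in these lists are thus lost without them.

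The 13 mitochondrially encoded mRNAs of the same complexes are translated on mitochondrial ribosomes. Their bound over unbound ratio is therefore not read here as loading on polysomes of the cytosol. Of the 13, 6 were lower in the bound fraction (median -1.25) and none higher, against 7.10 and 8.46% of all genes. A lower ratio late than early was called in 6 (median -2.08) and a higher one in none, against 5.39 and 2.36% of all genes. Without the 3.5 hpf libraries 0% of all genes were called for this change, so these 6 calls are then lost too. MT-CO1, the catalytic subunit of complex IV, had 143990.4, 138626, 95505, 87473, 41666 and 68721 normalized counts bound from egg to 5.3 hpf, against 128221, 141381, 112857, 159753, 200571 and 543367 unbound. MT-CYB, the cytochrome b of complex III, had 30597, 28352, 28738, 21691, 9438 and 20587 bound, against 42667, 41517, 44155, 52177, 68018 and 153425 unbound. In both, the unbound library of 5.3 hpf was the highest of the fractionated libraries, at the stage at which the nuclear mRNAs of complexes III and IV were higher bound. In the unfractionated libraries none of the 13 was called late against early (median -0.07), while 22.5% of all genes rose and 13.0% fell. MT-CO1 had 163559, 157248, 166835, 204359, 173674 and 244644 unfractionated counts from egg to 5.3 hpf.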

How the data were processed

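RNA from polysome-bound, polysome-unbound and unfractionated samples of 6 stages was sequenced as 18 libraries, 1 per combination. Per the submitters' processing notes the tools included Salmon 0.6.0 and DESeq2 besides the aligners GSNAP 2015-12-31 and STAR 2.4.2a, and the genome build was GRCz10; their order and settings are not given in the sources used here. The authors deposited 1 gene table of normalized counts (signal: reads divided by 1 factor per library) and, per library, Salmon files with estimated counts and TPM for 52340 transcript entries. About 47% of the gene table's values came back as whole reads within 0.001, so it was analysed on a log2 scale. A map from transcripts to genes was not used here, so 12856 genes, 59 of them members, were joined to the transcript whose reads matched theirs over the libraries. Read totals run from 30.67 to 71.65 in units of 1000000 reads.

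Bound and unbound libraries were compared with stage as a block, unfractionated late and early libraries directly, and the bound over unbound ratio between late and early stages and as a slope over the first 4 stages. The fits used limma 3.58.1 with its trend in R 4.3.3 on log2(value + 1), for genes with at least 10 in at least 2 libraries, with Benjamini-Hochberg adjustment over all genes and a threshold of 0.05. A fold change on this scale understates that of low genes. Alternatives were other pseudocounts, filters and scalings, edgeR 4.0.16 on rounded reads, and each stage left out; edgeR on reads of the gene table was added after the data were seen. The scripts were checked on simulated data. Stage-wise values were described for genes reaching 100 normalized counts in 2 or more libraries.

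The mRNAs, the gene lists and the tests were chosen with earlier results of these data known. Named were, per complex and direction, up to 2 called mRNAs with the largest change and a mean of at least 100, the mRNA with the smallest p where none was called, core subunits and paralogue families; further ones were named after their values were seen. No sequences are shown, and some genes are not reported here by name.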

Additional observations from a re-analysis of the deposited data

Results flagged for a closer look

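For 11 mRNAs the ratio of bound to unbound level was not the same late (3.5 and 5.3 hpf) and early by the test of the difference itself (limma, adjusted p under 0.05). The ratio was higher late for ndufa5 with a log2 change of 3.95, UQCRB with 2.59, NDUFS5 with 2.41, NDUFA10 with 2.12, UQCRC2 with 1.83, UQCRC1 with 1.80 and atp5if1a with 1.74. It was lower late for NDUFA4 with a log2 change of -2.32, atp5mea with -2.25, NDUFA9 with -2.02 and cox7a1 with -6.57, the last of which includes a bound library listed at 0. None of the 11 passed when the 3.5 hpf libraries were left out. The groups of stages hold 2 and 4 stages with 1 library each per fraction, and no cause was tested.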

How the results depend on the processing

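Numbers are given as mRNAs higher, then lower, and medians as log2 values minus the median of all genes tested. For bound over unbound, edgeR on joined transcripts gave 1 and 3 of 59 tested with a median of -0.032, against 6.46 and 4% of all genes. Limma without trend gave 2 and 3, against 5.42 and 4.03%. Median centring gave 12 and 5, scaling to control entries 1 and 73 with a median of -0.40, and library totals 3 and 43. The shares of all genes under these scalings are given above. Without the stage block 4 and 4 were called, against 5.78 and 1.59% of all genes. Samples cannot be paired further because each condition is 1 library. Leaving out 1 stage gave 2 to 9 and 3 to 25, against 4.56 to 10.7 and 2.82 to 8.23% of all genes, with medians of -0.43 to -0.16. Under scaling to control entries the log2 ratio changed sign for, among others, cox6b2 (-1.48), atp5if1a (-1.22), atp5meb (-1.12), NDUFAB1 (-0.51) and UQCR10 (-0.71). For late over early levels, median centring gave 55 lower, against 27.5% of all genes. The median was -1.13 with edgeR on joined transcripts, -0.60 with a filter of 100 and -1.02 with no filter, against -0.90. Leaving out 1 library gave 0 to 5 and 17 to 33, against 7.03 to 21.0 and 6.96 to 22.7% of all genes, with medians of -0.91 to -0.65. For the late change of the ratio, edgeR on joined transcripts gave 1 and 0 of 59 tested, against 2.1 and 1.81% of all genes. With edgeR on the gene table's reads 1 was lower, against 2.78%, and with TMM 2 were lower, against 3.34%. Limma without trend gave 0 and 0, against 0 and 0.00402%, and control entries 3 and 0, against 1.28 and 0.12%. Leaving out 1 stage gave 0 to 5 and 0 to 5, against 0 to 2.64 and 0 to 5.89% of all genes, with medians of 0.056 to 1.22. For the early slope, edgeR on joined transcripts gave 7 lower of 59 with a median of -0.23, against 3.64% of all genes. Limma without trend and control entries gave 0, against 0 and 0.372% of all genes with a falling ratio. Leaving out 1 stage gave 0 to 1 and 0 to 17, against 0.12 to 7.48 and 0.74 to 7.52% of all genes, with medians of -0.19 to -0.16. Over the called mRNAs and all settings run, 857 values kept direction and call, 279 kept direction only, and 2 changed sign. Control entries were not used for the unfractionated libraries, which hold 5 to 59 reads of them. The cause of these shifts was not tested; fewer genes and members enter the edgeR fit on joined transcripts, and fewer libraries the fits that leave out a stage. With 1 library per condition, differences between single stages have no replicate check.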
